A study of Rattus norvegicus with 4 samples.

Results

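The mitochondrial ribosome has its own set of protein subunits, and the genes of those subunits were followed here in rat pancreatic islets after intrauterine growth restriction (IUGR). Members were all non-control array probes whose gene name began with Mrpl or Mrps followed by a digit. The rule found 81 probes for 70 of the 26456 gene names or unnamed probes on the array. Of these names, 42 were Mrpl names (large subunit, 51 probes) and 28 were Mrps names (small subunit, 30 probes). After the filter on dim probes, 69 of the 70 were tested among 20011 genes: 42 of the large and 27 of the small subunit. Mrps28 was not tested, because its only probe was well above background in 0 of the IUGR and 0 of the control channels.

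Mitochondrial ribosomes translate the few proteins that mitochondrial DNA encodes, all of them core subunits of the respiratory chain and the ATP synthase. Every one of their protein subunits is encoded in the nucleus, made in the cytosol and imported, so building a mitochondrial ribosome needs many nuclear genes in step with mitochondrial rRNA. In beta cells, ATP made by mitochondria closes potassium channels and so couples glucose to insulin release.

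Islets came from Sprague Dawley rats at postnatal day 14. In the IUGR group both uterine arteries of the dam had been ligated on embryonic day 18, and in the control group the dam had sham surgery. Total RNA of isolated islets was amplified to cDNA and labelled with Cy3 or Cy5, and each of 4 two-colour arrays held 1 of the 4 IUGR samples with 1 of the 4 control samples. IUGR was in Cy5 on arrays 1 and 2 and in Cy3 on arrays 3 and 4. Array 1 paired IUGR replicate 2 with control replicate 1, array 2 IUGR replicate 1 with control replicate 2, array 3 IUGR replicate 4 with control replicate 3, and array 4 IUGR replicate 3 with control replicate 4. The labels call the samples biological replicates but do not give sex, litters or animals per sample.

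All values below are log2 ratios of IUGR over control, so 0 is no difference and 1 is a doubling. Before normalization the channels differed in brightness: the log2 ratio of their median signals was 1.68 on array 1, -1.58 on array 2, -2.42 on array 3 and -1.55 on array 4, so IUGR was the brighter channel only on array 1. Normalization by loess, which removes a trend with brightness within each array, preceded every ratio unless another scaling is named. All 9 islet endocrine markers, among them Ins1, Ins2, Gcg and Sst, were above background in all 8 channels. Their median ratio was 0.22, with 6 above 0 and 3 below. The islet endocrine mean was 0.51, 0.83, -0.16 and -0.36 on arrays 1 to 4. All 5 T and NK cell markers and all 4 B cell markers lay below 0, with medians of -0.49 and -0.48. Among them Cd2, Cd3e and Ms4a1 passed the filter on dim probes only through the control channels. For these 3 a ratio below 0 was favoured by the filter itself. All 10 acinar markers tested lay above 0, with a median of 0.39. Medians were 0.61 for 3 red cell, 0.43 for 4 macrophage, -0.35 for 4 duct, 0.15 for 3 endothelial and 0.22 for 4 fibroblast markers tested. The acinar mean was 0.37, 0.06, 1.67 and -0.23 on arrays 1 to 4, and the T and NK cell mean was 0.04, -0.45, -1.80 and -1.03. The part that other cell types play in the ratios of the members was not tested. In whole islets, fewer cells of a type and less RNA per cell cannot be told apart.

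The members were well measured in these islets. Of the 81 probes, 78 were well above background in all 8 channels, as were all 69 tested members, and 0 of the 153 member spots were saturated. Among all genes tested, 16098 of 20011 were well above background in all channels. By accession, 75 of the 81 probes matched a RefSeq gene, 74 of them under the same symbol. Over the whole array 17998 of 30367 probes matched. Across the array, 18814 of 20011 genes (94%) had a 95% interval of the ratio that lay within 2-fold of 0. Among members it was 67 of 69 (97.1%), the exceptions being Mrpl43 and Mrpl38. Within the narrower bound of 1.5-fold lay 63 members (91.3%), against 76.4% of all genes. The model behind these intervals holds a term for the dye. That term also takes out any difference between the sets of samples in either dye orientation, so the intervals leave that difference out.

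After loess, the fitted ratios of the mitochondrial ribosome genes mostly lay close to 0. No member was called at an adjusted p under 0.05 by limma with Benjamini-Hochberg adjustment over all genes (0 of 69), and the background was 0% (0 of 20011). The lowest adjusted p among members was 0.339. At an unadjusted p under 0.05, 4 members passed (5.8%), while 13.7% of all genes did. They were Mrps18b, which was higher (1 member, background 7.13%), and Mrpl43, Mrpl38 and Mrpl46, which were lower (3 members, background 6.54%). The members' share thus lay below that of the array as a whole. The level of the members depended on the scaling. With median centring in place of loess their median was -0.31, against -0.05 for all genes.

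Of the 69 members, 39 had ratios above 0 and 30 below. Their median was 0.010, and that of all genes was 0.014. The middle part of the members, between the quartiles, ran from -0.07 to 0.11, and that of all genes from -0.11 to 0.16. Without regard to sign, the median member ratio was 0.083 and the median of all genes 0.136. The full range among members was -0.58 (Mrpl43) to 0.48 (Mrpl10).

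**Figure D1:**
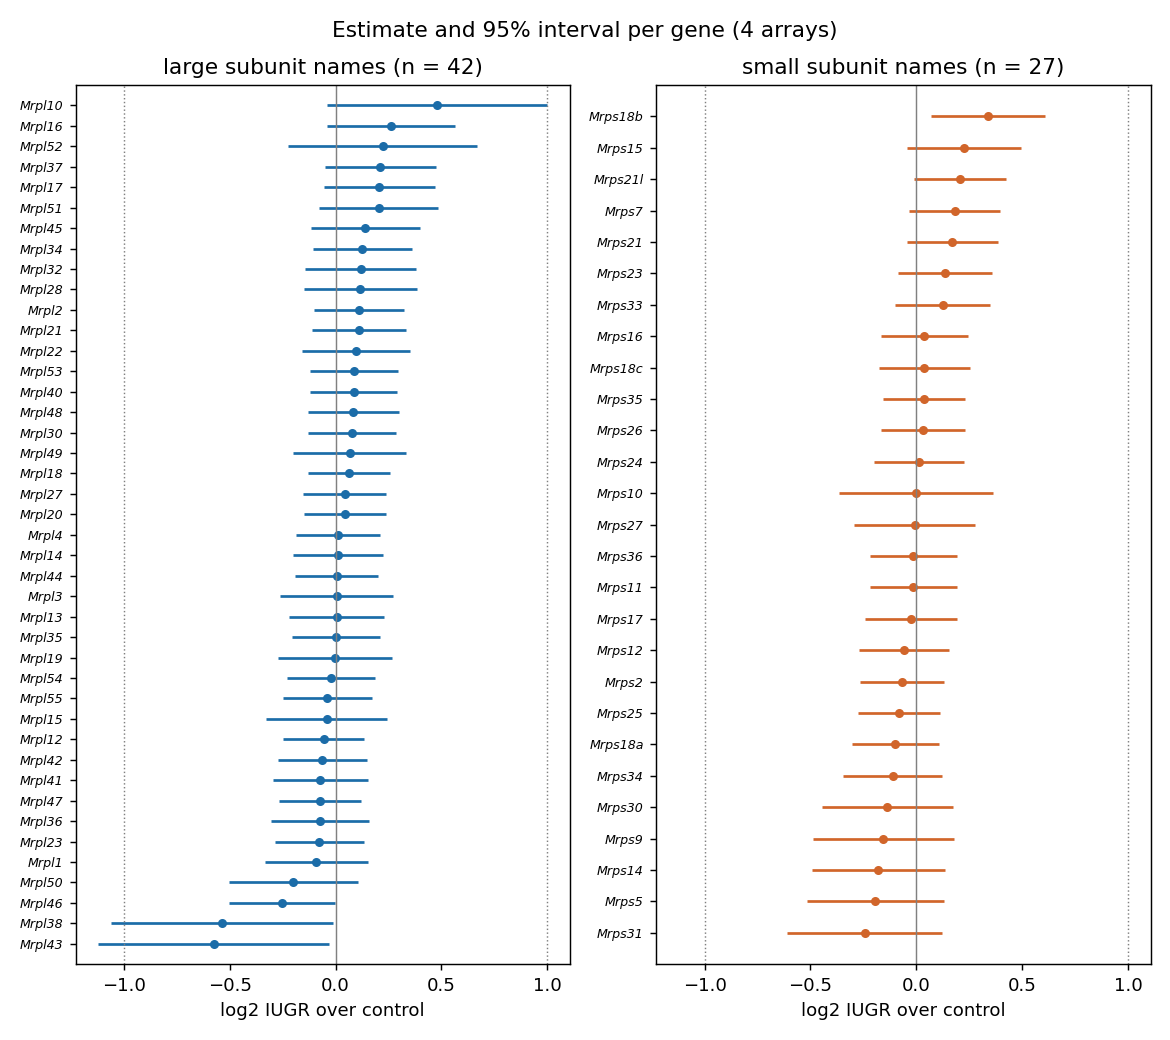
Fitted log2 ratio of IUGR over control (points) with its 95% interval from limma (bars) for each of the 42 large and 27 small subunit names, sorted within the panels, with dotted lines at a 2-fold difference. Only the bars of Mrps18b, Mrpl46, Mrpl38 and Mrpl43 leave out 0, and those of Mrpl38 and Mrpl43 reach past the dotted line at -1.

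The large and small subunits were close on every array. The large subunit mean was 0.13, 0.11, -0.03 and -0.13 on arrays 1 to 4. The small subunit mean was 0.12, 0.02, -0.02 and -0.09. Both means were above 0 on the arrays with IUGR in Cy5 and below 0 on the arrays with IUGR in Cy3. Over arrays, the mean was 0.02 ± 0.12 (SD, n = 4) for the large subunit and 0.0052 ± 0.087 (SD, n = 4) for the small one. The difference, large minus small, was 0.01, 0.09, -0.0043 and -0.04, with a mean of 0.01 ± 0.05 (SD, n = 4). It was smaller than the spread between arrays and had either sign. Counting the large subunit proteins Mrps18a and Mrps30 as large and leaving out Mrps36 gave a difference of -0.0032.

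The level of both subunits against the rest of the array depended on the scaling. With median centring in place of loess, the large subunit mean was 0.61, -0.56, -0.68 and -0.50 on arrays 1 to 4 and the small subunit mean was 0.53, -0.58, -0.57 and -0.41. These values had the sign of the brightness difference between the channels of each array. Over arrays they averaged -0.28 ± 0.60 (SD, n = 4) and -0.26 ± 0.53 (SD, n = 4). Only 6 of 69 members then had a ratio above 0, and their median was -0.31 while that of all genes was -0.05. Cytosolic ribosomal proteins shifted in the same way, with means of 1.20, -0.47, -1.35 and -0.93 under median centring. The difference between the subunits stayed near 0 under median centring, at -0.02.

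**Figure D2:**
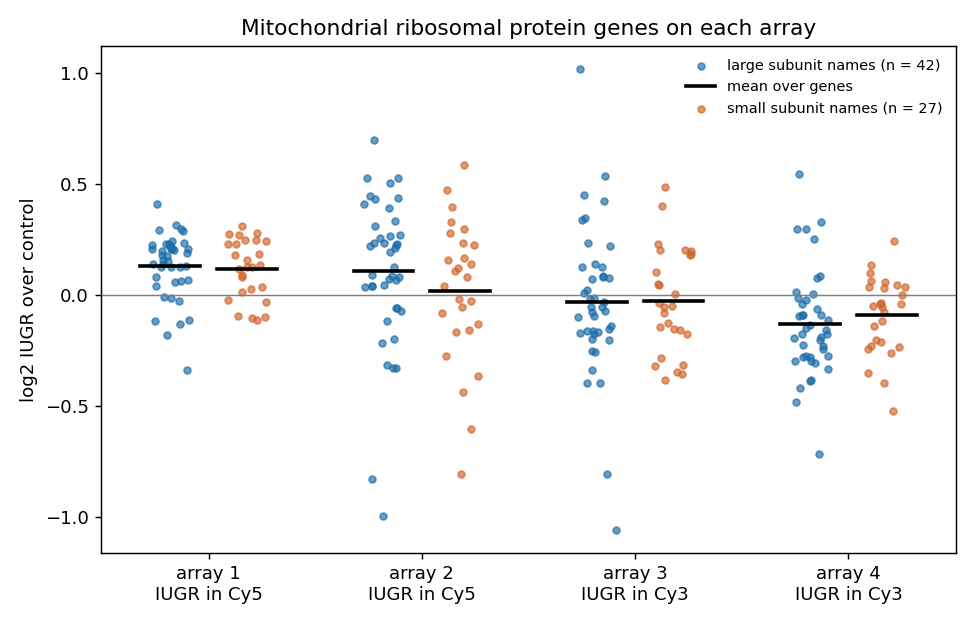
Log2 ratio of IUGR over control after loess for each tested member on each array (points, spread sideways at random), with the mean over the genes of a subunit as a black bar. On array 1 the points crowd just above 0 around a large subunit mean of 0.13, and on array 4 most lie below 0 around -0.13.

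The number of members above 0 went with the dye that carried IUGR, and so also with the samples on those arrays. On array 1, 55 of 69 members were above 0, and on array 2 it was 46. On array 3 it was 29, and on array 4 only 19. Among all genes the share above 0 ran from 49.1% to 52.7% over the arrays. Only 3 members kept 1 sign on 4 arrays (4.35%, background 20.7%). They were Mrps18b, Mrps21l and Mrps21, all 3 above 0 (background 11%), and 0 members were below 0 on every array (background 9.69%).

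The dye coefficient of the model gives the Cy5 over Cy3 difference of a gene apart from the mean group difference. No sample was labelled in both dyes, and the arrays of each dye orientation held different samples. The coefficient therefore also holds any difference in ratio between those sets of samples, which cannot be told apart from dye. It was above 0 in 55 of 69 members (79.7%), against 51.4% of all genes, with a median of 0.12 for members and 0.0050 for all genes. A ratio above 0 on both arrays with IUGR in Cy5 and below 0 on both with IUGR in Cy3 was present in 19 members (27.5%) and in 8.95% of all genes. In 20 members (29%) the sign on array 1 was instead opposite to that on all other arrays, against 31.7% of all genes. Mrpl42, a protein of the large subunit with no bacterial counterpart, held the highest coefficient among members at 0.38. Its ratios were 0.41, 0.22, -0.40 and -0.48, so that the groups averaged out at -0.06 ± 0.08 (SE). This SE leaves out the dye coefficient, and the SD of Mrpl42 over arrays was 0.44. Cytosolic ribosomal proteins (76.5% of 85 genes) and respiratory chain and ATP synthase subunits (75.9% of 83 genes) also had mostly positive dye coefficients. Dye is balanced over the groups in this design, and the model takes it out of the group ratio.

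**Figure D3:**
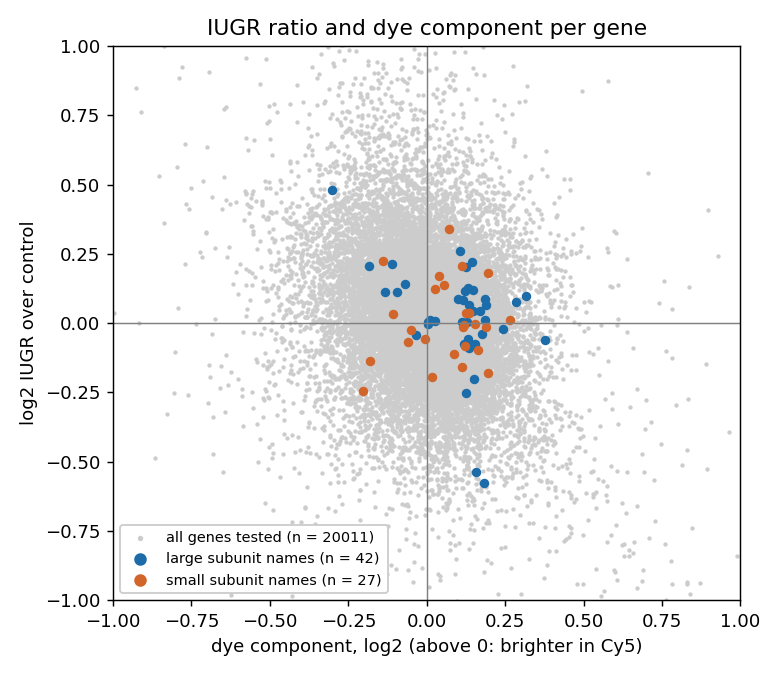
Fitted log2 ratio of IUGR over control against the dye coefficient (log2, above 0 where Cy5 was brighter) for the 42 large and 27 small subunit names, over all 20011 genes tested in grey, with 143 genes beyond the axes at -1 and 1. Members spread to the right of 0 (55 of 69) but lie around 0 in height.

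Across the 69 members, the ratios of arrays 2 and 3 correlated at r = 0.66, those of arrays 3 and 4 at r = 0.62 and those of arrays 2 and 4 at r = 0.25. Array 1 correlated with arrays 2, 3 and 4 at r = 0.07, -0.39 and -0.67. Over all genes the same 3 values of array 1 were 0.13, -0.23 and -0.30. Those of arrays 2 and 3, 3 and 4, and 2 and 4 were 0.63, 0.63 and 0.37. The members share array, dye and normalization, so these are descriptions of the arrays. Array 1 is also the array on which the IUGR channel was the brighter one. The scatter of members within an array (SD) was 0.14, 0.33, 0.30 and 0.21, below that of all genes on each array at 0.24, 0.47, 0.50 and 0.29. More than 1.5-fold from 0 lay 0 members on array 1, 6 on array 2, 3 on array 3 and 1 on array 4.

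The probes of the 4 members at an unadjusted p under 0.05 are shown to let the measured transcript be found, together with both probes of Mrpl10, the member with the highest ratio. Each probe has 60 bases, of which the first 30 are printed 5′ to 3′ as the scanner files give them. No letter is in capitals because no base is singled out.
Mrps18b: ttgagaacgaaccttggaaatacctggatt
Mrpl43: agttcgtggaacgcgaagtgacggacttcg
Mrpl38: tgagagggcacagctggaagctcacatctc
Mrpl46: accctgtggccactacaagttcaagttccc
Mrpl10, probe of the gene's value: cttctggtgtgtctgaagacagatactgtg
Mrpl10, other probe: agccaggtcctaaagccttttctagaagat
On the assembly rn4, which the files use, the probe of Mrps18b lies at chr20:2987325-2987478 on the plus strand. The others lie at chr1:250072915-250072974 (Mrpl43, minus), chr10:106238769-106238828 (Mrpl38, minus), chr1:134499229-134499288 (Mrpl46, minus), chr10:85770281-85770340 (first probe of Mrpl10, plus) and chr10:85768130-85768401 (other probe of Mrpl10). The spans of Mrps18b and of the other Mrpl10 probe are longer than the probe. The files name no exon or UTR for these positions.

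In the stalk of the large subunit, which receives the elongation factors, Mrpl10 anchors the copies of Mrpl12. Mrpl10 had ratios of -0.34, 0.70, 1.02 and 0.54 on arrays 1 to 4. It was below 0 on array 1 and above 0 on the other 3, and the fit gave 0.48 ± 0.20 (SE, adjusted p = 0.339 by limma). It was 0.74 without array 1 and 0.22 without array 2, 0.11 under median centring and 0.17 with channel brightness as a covariate. The other Mrpl10 probe gave -0.02, 0.50, 0.62 and 0.07, a mean of 0.29 with the same signs. The first probe shares a run of 20 bases with 15 RefSeq promoter sequences on either strand, and 79 of the 81 member probes share such a run with 0. The remaining probe, that of Mrps15, shares one with 2 promoters. Whether other transcripts reach the Mrpl10 probe was not tested.

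Mrpl12, which also has been found to bind the mitochondrial RNA polymerase, had ratios of 0.08, 0.07, -0.20 and -0.18. They changed sign with the dye, and the fit gave -0.06 ± 0.07 (SE). The base of the stalk is built by the protein of mrpl11, which the files spell in lower case and the naming rule therefore does not take. Its ratios were 0.10, 0.21, 0.06 and -0.05, with a fit of 0.08 ± 0.08 (SE) that turned to -0.27 under median centring. The lower case names mrpl9 and mrpl24 had fits of -0.02 and -0.03.

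The core proteins of the large subunit that bacteria share sit around the peptidyl transferase centre and the rRNA folds. Of the 25 tested members of this class, 0 had an unadjusted p under 0.05 (background 13.7%), and their median was 0.04. Mrpl3, an early-binding rRNA protein, had ratios of 0.23, -0.21, -0.01 and 0.01 and a fit of 0.0047 ± 0.10 (SE). Mrpl16, which lies near the peptidyl transferase centre, had ratios of 0.29, 0.44, 0.42 and -0.11. It was above 0 on 3 arrays, with a fit of 0.26 ± 0.12 (SE, adjusted p = 0.339 by limma), and ranged from 0.13 (without array 3) to 0.39 (without array 4) when 1 array was left out. Under median centring it was 0.0067.

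For Mrpl2, another protein of the peptidyl transferase region, the 2 probes pointed apart. The probe that stands for the gene gave -0.13, 0.09, 0.23 and 0.25, and the other gave 0.11, -0.07, -0.34 and -0.04. The signs were opposite on every array. The fitted ratio of 0.11 ± 0.08 (SE), which turned to -0.24 under median centring, thus depends on the probe.

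Proteins of the large subunit with no bacterial counterpart held all 3 members that were lower at an unadjusted p under 0.05, out of 17 tested (17.6%, background of lower genes 6.54%). The median of this class was 0.0059, near that of all genes, with 9 members above 0 and 8 below, and the class itself was not tested. Mrpl43 had ratios of 0.21, -0.99, -0.81 and -0.71. Array 1 was above 0 and the other 3 were well below it, and the fit gave -0.58 ± 0.21 (SE, adjusted p = 0.339 by limma). Leaving out 1 array moved it between -0.88 and -0.28. This was the lowest ratio and the widest interval among members, from -1.12 to -0.03.

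Mrpl38 and Mrpl46 belong to the central protuberance, the part of the large subunit that faces the head of the small one. Mrpl38 had ratios of 0.07, -0.83, -1.05 and -0.33. As for Mrpl43, only array 1 was above 0, and the fit gave -0.54 ± 0.20 (SE, adjusted p = 0.339 by limma). Mrpl46 had ratios of 0.06, -0.31, -0.34 and -0.42, with a fit of -0.25 ± 0.10 (SE, adjusted p = 0.339 by limma). All 3 genes kept a negative ratio under each alternative processing and with any 1 array left out, but none was called in any. Their size moved with the processing. With channel brightness as a covariate in place of dye it was -0.31 for Mrpl43, -0.30 for Mrpl38 and -0.15 for Mrpl46, and under median centring -0.83, -0.75 and -0.56. Spots with an outlying background, left out or kept as measured, gave -0.32 for Mrpl38.

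The ratios of other members of the class lay on both sides of 0, up to 0.22 for Mrpl52. Mrpl44, which resembles a ribonuclease, had ratios of -0.01, 0.08, -0.03 and -0.01 and a fit of 0.0059 ± 0.08 (SE), with a negative value of -0.32 under median centring. Mrpl41 had ratios of 0.20, -0.07, -0.17 and -0.24 and a fit of -0.07 ± 0.09 (SE). Mrpl50 had ratios of 0.23, -0.33, -0.40 and -0.31 and a fit of -0.20 ± 0.12 (SE). On array 1 its ratio stood alone above 0. The fit was -0.34 without array 1 and -0.06 without array 2, -0.48 under median centring and -0.05 with channel brightness as a covariate. The other probe of Mrpl50 gave -0.13, 0.08, 0.12 and -0.02, with the opposite sign on every array except array 4. That probe was dim, being well above background in 0 of 4 IUGR channels and 3 of 4 control channels.

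In the small subunit, bacterial-type proteins form the decoding centre and the head. Of the 15 tested members of this class, 1 was higher at an unadjusted p under 0.05 (background 7.13%) and 0 were lower (background 6.54%). The median of the class was -0.0024. Mrps12, a protein of the decoding centre, had ratios of -0.11, -0.02, -0.14 and 0.04 and a fit of -0.06 ± 0.08 (SE). Mrps7, which organises the head, had ratios of 0.28, 0.47, 0.05 and -0.08. The fit gave 0.18 ± 0.08 (SE, adjusted p = 0.339 by limma) and turned to -0.17 under median centring.

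Mrps16, a protein of the small subunit body, had ratios of 0.09, 0.24, -0.04 and -0.14 from 10 spots of its first probe. Its other probe gave 0.21, 0.19, -0.22 and -0.32, with the same sign on every array. The means of these probes were 0.04 and -0.03, and the first turned to -0.31 under median centring. Both probes were above 0 with IUGR in Cy5 and below 0 with IUGR in Cy3.

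Mrps18 exists as 3 paralogues, of which the products of Mrps18b and Mrps18c sit in the small subunit and that of Mrps18a in the large one. Mrps18b had ratios of 0.23, 0.59, 0.40 and 0.14, above 0 on all 4 arrays. The fit gave 0.34 ± 0.10 (SE, adjusted p = 0.339 by limma), and its unadjusted p was the smallest among members. It stayed above 0 with any 1 array left out, at 0.25 to 0.43, and under each alternative processing, with 0.23 under median centring. Mrps18c had ratios of 0.12, 0.22, 0.0059 and -0.20 and a fit of 0.04 ± 0.08 (SE), with -0.31 under median centring. Mrps18a had ratios of 0.16, -0.02, -0.28 and -0.24 and a fit of -0.10 ± 0.08 (SE). The paralogues were each measured by their own probe, and the difference between them was not tested.

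Mrps21 and Mrps21l, whose name marks it as a gene like Mrps21, were the other members with a positive ratio on all arrays. Mrps21 had ratios of 0.12, 0.30, 0.20 and 0.06, and Mrps21l had 0.25, 0.39, 0.19 and 0.00056. The fits were 0.17 ± 0.08 (SE) and 0.21 ± 0.08 (SE), neither at an unadjusted p under 0.05, and both turned negative under median centring, at -0.18 and -0.13. Near-identical copies can share signal on an array, so the pair may not be separate measurements. The other Mrps21 probe gave -0.06, 0.09, 0.11 and 0.02.

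Among small subunit proteins with no bacterial counterpart, 0 of 8 had an unadjusted p under 0.05 (background 13.7%), and the median was 0.01. Mrps31 had ratios of -0.09, -0.80, -0.13 and 0.05. Array 2 stood far below the others, and the fit of -0.24 ± 0.14 (SE) shrank to -0.07 without it. Mrps34, which binds the small subunit rRNA, had ratios of 0.03, -0.08, -0.35 and -0.05 and a fit of -0.11 ± 0.09 (SE). Mrps22 was on the array under the name LOC683519, by its RefSeq accession. Its ratios of 0.29, -0.17, -0.07 and -0.25 gave a fit of -0.05 ± 0.11 (SE).

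The remaining names of the small subunit belong elsewhere by function. The product of Mrps30 is a large subunit protein, and its ratios were -0.03, -0.60, 0.05 and 0.04. Array 2 alone was away from 0, and the fit was -0.14 ± 0.12 (SE). Mrps36, now known as a subunit of the alpha-ketoglutarate dehydrogenase complex, had ratios of 0.13, 0.08, -0.05 and -0.21. Its fit was -0.01 ± 0.08 (SE). With Mrps18a, the median of these 3 genes was -0.10.

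Promoters of the members held motifs of factors known to drive nuclear genes for mitochondrial proteins. RefSeq promoter sequences (assembly GRCr8, 300 bases around the start of a gene) were at hand for 55 of the 70 members. The motifs were GCGCA and GCGC with any 1 base between them for NRF-1, CCGGAAG for the ETS family, which includes the NRF-2 subunit GABPA, and AAGATGGC for YY1, each searched on both strands. NRF-1 letters were in 8 of 55 member promoters (14.5%), against 6.09% of 19005 protein-coding genes. ETS letters were in 18 (32.7%, against 11.24%) and YY1 letters in 14 (25.5%, against 3.92%). At least 1 of the motifs was in 30 member promoters (54.5%), against 18.84% of all. The median GC content was 56.0% in members and 55.3% in all promoters. No 2 motifs overlapped in any member promoter (0).

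The median ratios of members with and without a motif were compared as a description, with no test. The median was 0.03 for the 30 members with any of the motifs and -0.02 for the 25 without. For NRF-1 letters it was 0.10 with (8 members) and 0.0047 without (47 members). For ETS letters it was 0.03 with (18 members) and 0.01 without (37 members). For YY1 letters it was -0.0054 with (14 members) and 0.04 without (41 members). A member with more than 1 motif counts under each. The windows below show the motif letters in capitals within 30 bases of the gene's own strand, for the member with all 3 motifs, Mrps18b, and for the YY1 letters of the other members whose values on every array are given here.
Mrps18b, NRF-1: tccttgtccgGCGCATGCGCagtcgttctt
Mrps18b, ETS: gcgcagtcgttCTTCCGGcaggccgtacgt
Mrps18b, YY1: ggatgtgcgacAAGATGGCtgcctccttgc
Mrpl42, YY1: cagattgaagcAAGATGGCgagcgcgcggt
Mrpl46, YY1: gggaagacggaAAGATGGCggcgcccatag
Mrpl50, YY1: ggagcttgtcgAAGATGGCggcgctgtgtg
Mrps7, YY1: tgatagcggccAAGATGGCtgcccccgcac
Mrps18a, YY1: ggtgtgttcccAAGATGGCggccctcaggg
Mrps30, YY1: cgcggaggacaAAGATGGCggctgccaggt
On GRCr8 the Mrps18b windows lie at chr20:2842976-2843005, chr20:2842992-2843021 and chr20:2843023-2843052, all on the plus strand. The other YY1 windows lie at chr7:32028485-32028514 (Mrpl42, minus), chr1:142116988-142117017 (Mrpl46, minus), chr5:68668043-68668072 (Mrpl50, minus), chr10:101342637-101342666 (Mrps7, plus), chr9:22367362-22367391 (Mrps18a, minus) and chr2:52195868-52195897 (Mrps30, minus). In all YY1 windows printed, the letters began at or after the start of the gene, from 0 (Mrps18a) to 28 bases past it (Mrps18b). None of these lay upstream of the start. The members that share the YY1 letters ran from -0.25 (Mrpl46) to 0.34 (Mrps18b), so the letters did not go with 1 direction. A match of letters is a description and no measured binding.

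Of the 55 members with a promoter entry, 23 (41.8%) had a head-to-head protein-coding neighbour within 1000 bases, against 12.9% of 19005 protein-coding genes. Mrpl46 and Mrps11 face each other with 14 bases between their starts. Mrpl46 was at -0.25 and Mrps11 at -0.02, with Mrps11 ratios of 0.24, 0.11, -0.15 and -0.26. The 2 genes had opposite signs on array 2 only, and the difference between them was not tested.

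No other gene listed for mitochondrial translation had an adjusted p under 0.05 by limma (0 in each list). Without regard to sign, the median ratio was 0.107 for subunits under other names, 0.106 for translation factors and 0.160 for assembly genes, above the 0.083 of the members, and 0.072 for aminoacyl-tRNA synthetases. Subunits under other names numbered 7, with 0 at an unadjusted p under 0.05 (background 13.7%) and a median of -0.05. Among them Ptcd3, an rRNA-binding protein of the small subunit, had ratios of -0.03, -0.0035, 0.34 and 0.37 (fit 0.17, and -0.18 under median centring). Dap3, a GTP-binding protein of the small subunit head, had ratios of 0.07, 0.39, 0.55 and -0.0050 (fit 0.25, and -0.04 under median centring).

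Of 15 listed mitochondrial translation factors, 11 were tested, with a median of -0.0016. At an unadjusted p under 0.05, 1 was lower (background of lower genes 6.54%). Guf1, a GTPase that acts on the ribosome during elongation, had ratios of -0.11, -0.34, -0.25 and -0.22. It was below 0 on every array, with a fit of -0.23 ± 0.08 (SE, adjusted p = 0.339 by limma). Mrrf, the ribosome recycling factor, had ratios of 0.10, 0.14, 0.49 and 0.07 and a fit of 0.20 ± 0.10 (SE).

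Of 29 names listed for ribosome assembly and rRNA modification, 16 were tested, with a median of -0.0019. At an unadjusted p under 0.05, 1 was higher (background of higher genes 7.13%). Eral1, a chaperone of the small subunit rRNA, had ratios of 0.09, 0.45, 0.53 and 0.31. It was above 0 on every array, with a fit of 0.35 ± 0.10 (SE, adjusted p = 0.339 by limma). Lonp1, the main protease of the mitochondrial matrix, had ratios of -0.16, 0.30, 0.51 and 0.41 and a fit of 0.27 ± 0.11 (SE), with -0.07 under median centring.

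Of 17 mitochondrial aminoacyl-tRNA synthetases, which charge mitochondrial tRNAs, 14 were tested, with a median of 0.0073. Among these, 0 had an unadjusted p under 0.05 (background 13.7%). Yars2, for tyrosine, had a fit of -0.24 ± 0.10 (SE) and Wars2, for tryptophan, one of 0.16 ± 0.08 (SE). Of 11 names for transcription and replication of mitochondrial DNA, 9 were tested and 0 passed (background 13.7%), with a median of 0.04. Polg, the mitochondrial DNA polymerase, was above 0 on every array, at 0.10, 0.17, 0.41 and 0.16 (fit 0.21 ± 0.08, SE). Top1mt, a topoisomerase, had a fit of 0.27 ± 0.13 (SE), with -0.03 under median centring.

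Set beside larger families, cytosolic ribosomal proteins had 5 of 85 higher and 4 lower at an unadjusted p under 0.05, with a median of -0.01. Respiratory chain and ATP synthase subunits, the proteins that mitochondrial translation serves, had 3 of 83 higher and 2 lower, with a median of 0.05. The shares of 10.6% and 6.02% lay, like the 5.8% of the mitochondrial ribosome, below the 13.7% of all genes. Their array means were 0.16, 0.09, -0.18 and -0.13 for cytosolic ribosomal proteins and 0.12, 0.19, 0.01 and -0.11 for respiratory chain subunits. Those of the mitochondrial ribosome were 0.12, 0.07, -0.03 and -0.11. Array means were above 0 with IUGR in Cy5 and below 0 with IUGR in Cy3 in both ribosomal families, while the respiratory chain mean on array 3 was just above 0.

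**Figure D4:**
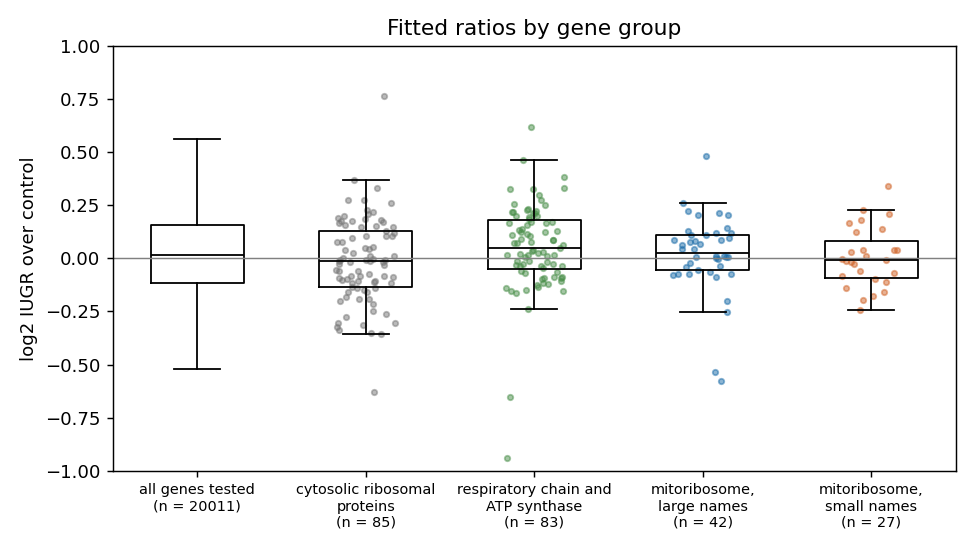
Fitted log2 ratio of IUGR over control by gene group: boxes span the quartiles with the median inside, whiskers reach to the last value within 1.5 box lengths, and points are single genes (not drawn for all genes). The boxes of the mitochondrial ribosome lie around 0 and are narrower than that of all genes, with Mrpl43 and Mrpl38 as the low points at -0.58 and -0.54.

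At an unadjusted p, the members that passed depended on the array set. Without array 1, 15 members passed (background 31%), among them Mrpl43, Mrpl38, Mrpl46 and Mrps18b. Without array 2 it was 1 member (background 4.68%), without array 3 it was 0 (background 2.36%) and without array 4 it was 4 (background 10.9%). None of the members had an adjusted p under 0.05 in any of these, the lowest being 0.0724 without array 1.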

How the data were processed

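Per the file headers, the authors extracted the 4 arrays with Agilent Feature Extraction 10.10.1.1 (protocol GE2_1010_Sep10), with probe positions on rn4. The deposited scanner files hold mean signals, backgrounds and processed signals in units of intensity, and a log10 ratio of Cy5 over Cy3, which was not used. The deposited value table holds log2 ratios per spot. Checked against the scanner values, it ran as Cy5 over Cy3 (r from 0.896 to 0.970 with loess ratios, medians from -0.029 to 0.008), and its normalization stayed unknown. The submitters' processing notes name limma without settings.

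Here, intensities were corrected with normexp (offset 50) in limma 3.58.1 (R 4.3.3) and normalized by loess. For spots with an outlying local background (222, 44, 145 and 52 over the 4 arrays), that channel's median background was used instead, and outlier spots and 1377 control spots were left out. Spots of a probe were averaged, and the brightest probe stood for a gene. A gene was tested if measured on 4 arrays and well above background in at least 2 of 4 channels of either group. The model held the IUGR over control contrast and a dye term, with 2 residual and 2.75 prior degrees of freedom. P-values were adjusted by Benjamini-Hochberg over 20011 genes. The SE given with a gene is the moderated SE of this model and leaves out the dye difference, which the SD over arrays keeps. The number of arrays limits the precision. The test was checked on simulated data.

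Values on every array are given for the 5 members in each direction with the smallest p, a fixed set of 16 genes, the 3 with the widest range and those whose probes had means of opposite sign. From each pathway list the 2 genes with the smallest p are named. Mrps21, Mrps11 and Mrpl42 were added after their values were seen. Mrpl17, which none of these rules picks, was also put among the 39 named genes of the closing sections. Its fit was 0.21 ± 0.10 (SE). Mrpl42 is not among the 39. Members, lists and rules were chosen with earlier results of these data known. Same-numbered samples of the groups did not deviate together (r of -0.06, -0.29, 0.12 and -0.17), so the replicate numbers were not taken to pair samples. Gene names come from the files, and 75 of the 81 member probes matched a RefSeq table of assembly GRCr8. Figures were drawn with matplotlib.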

Additional observations from a re-analysis of the deposited data

Results flagged for a closer look

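The 4 array ratios were checked for 42 items: 39 named genes, the large and small subunit means and the difference between these means. Of the 42, 4 had 1 array far from the other 3 by Dixon's ratio of gap to range, above the 95% critical value. Chance alone marks about 5% of such groups of 4. Mrpl50 was at 0.23 on array 1, while its other arrays lay between -0.40 and -0.31. Mrpl44, whose fitted ratio was near 0, was at 0.081 on array 2, with the others between -0.03 and -0.01. Mrps30 was at -0.60 on array 2, with the others between -0.03 and 0.05. Mrrf was at 0.49 on array 3, with the others between 0.07 and 0.14. The cause of each was not tested.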

How the results depend on the processing

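No member was called under any alternative run, and the count of genes called over the array was 0 in each except median centring, which called 15, all lower (15) and none a member (0). Median centring also moved the large subunit mean to -0.28 and the small one to -0.26, and the cause was not tested. It turned Mrps21l to -0.13, Mrps7 to -0.17, Mrpl3 to -0.16, Mrpl44 to -0.32, Mrps16 to -0.31, Mrps18c to -0.31, Mrpl2 to -0.24, Mrps21 to -0.18, Mrpl17 to -0.14, mrpl11 to -0.27, Ptcd3 to -0.18, Dap3 to -0.036, Lonp1 to -0.073 and Top1mt to -0.026. Agilent processed signals turned Mrpl3 to -0.0072 and Mrps11 to 0.014. Spots with an outlying background, left out or kept as measured, turned Mrpl44 to -0.013 and Mrps18c to -0.0010. Channel brightness as a covariate in place of dye turned Mrpl41 to 0.022, Mrps36 to 0.034, Mrps11 to 0.077 and LOC683519 to 0.062. Of 507 values of 39 named genes under 13 alternatives, 483 kept their direction and 24 reversed. No named gene was under the threshold of adjusted p in the main run or in these. The runs with no filter, a strict filter, no dye term or array weights left these ratios as in the main run. Their values therefore could not reverse. Both treatments of outlying backgrounds gave the same ratios for these genes.

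Leaving out 1 array in turn gave subunit differences, large minus small, from -0.0045 to 0.033. Ranges that crossed 0 were those of Mrpl3 (-0.11 to 0.12), Mrpl44 (-0.018 to 0.029), Mrps30 (-0.28 to 0.0050), Mrps18c (-0.015 to 0.090), Mrps36 (-0.053 to 0.025), Mrps11 (-0.049 to 0.018), mrpl9 (-0.051 to 0.011), mrpl24 (-0.065 to 0.013) and LOC683519 (-0.17 to 0.068). With the replicate block, which rebuilds ratios between samples of the same number, 0 genes were called, and the members at an unadjusted p under 0.05 were 2 (Mrpl10 and Mrpl43, background 11.1%) in place of 4. Mrps18b alone passed with an offset of 0 (background 11.8%), with processed signals (11.6%) and with either treatment of outlying backgrounds (7.41%). With channel brightness 1 member passed (Mrpl43, background 5.41%), and with median centring 2 (Mrpl38 and Mrpl43, background 5.93%). The background of the main run was 13.7%, so the share over all genes fell as well. Including mrpl9, mrpl24 and mrpl11, chosen after seeing the data, gave a subunit difference of 0.01. With 4 arrays, the 95% intervals of Mrpl43 and Mrpl38 reached past 2-fold, and those of the other 67 members did not.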
